A study of Homo sapiens with 6 samples.

Results

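The mitochondrial ribosomal protein genes were taken as the protein-coding rows of the deposited DU145 expression table whose symbols begin with MRPL or MRPS followed by a number. This rule gave 55 of the 10542 listed genes, out of 78 such symbols on a list written for the human genome. The other 23 were not analysed here, among them MRPL3, MRPL44, MRPL45 and MRPS18C. DU145 is a long-established line of human prostate cancer cells, in which the study compared cells stably overexpressing TFEB (DU145-TFEB) with cells carrying the empty vector (DU145-vector) to learn how TFEB, a transcription factor of lysosome biogenesis, affects tumour cell growth and spread. Both groups were made by lentiviral infection and differed, by their labels, in the TFEB insert alone. Polyadenylated RNA was sequenced from 3 libraries of each group. The labels do not say whether the 3 libraries came from separate cultures or infections. The study speaks of independent experiments for a set of assays shown together with the RNA-seq, without saying that the libraries are meant. If they are not, p-values measure only a spread between libraries that may be technical.

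The mitochondrial ribosome sits in the mitochondrial matrix and makes the proteins encoded by mitochondrial DNA, all of them core parts of the respiratory chain and ATP synthase. It has a large subunit, where peptide bonds form, and a small subunit, where the messenger is decoded. Its RNA comes from mitochondrial DNA, but all its proteins are encoded in the nucleus, made in the cytosol and imported. Some descend from bacterial ribosomal proteins and others were added during the evolution of mitochondria. A cell therefore has to make many MRPL and MRPS transcripts alongside the mitochondrially encoded rRNAs.

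The values are read counts that the authors divided by 1 size factor per library (0.950 to 1.099), called normalized counts below. Reads on the listed genes numbered 13999961 to 16511477 per library, and no mitochondrial ribosomal protein gene had fewer than 53 reads in any library, the count of MRPL38, the scarcest of them and the one in which counting error weighs most. TFEB itself had normalized counts of 6325, 6301 and 6036 in DU145-TFEB and 127.4, 123.9 and 125 in DU145-vector, in accord with the labels. Of 6 epithelial markers 3 were listed, KRT8, KRT18 and KRT19, all with lower means in DU145-TFEB (log2 fold changes -0.68, -0.78 and -0.38), and none of 8 markers of blood, endothelium or fibroblasts was listed. Every gene in the table had an adjusted p-value below 0.05 in the authors' own comparison of these libraries. A call is thus no independent evidence for any gene, and what can be read is the direction and size of each difference beside those of the other listed genes. In bulk RNA a change per cell and a change in the share of cells of a type cannot be told apart.

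Most mitochondrial ribosomal protein genes were higher in DU145-TFEB, by small amounts, and a smaller group with GC-poor transcripts was lower. By limma 41 of these 55 transcripts were higher and 14 lower in DU145-TFEB at an adjusted p-value below 0.05, where 47.6% of all listed genes were higher and 52.4% were lower. Their median log2 fold change (DU145-TFEB over DU145-vector) was 0.41, against -0.36 for all listed genes, and the range was -1.04 to 0.93. Among the 41 higher genes the median was 0.43 and the lowest value 0.22. Among the 14 lower genes the median was -0.71 and the value nearest to 0 was -0.32. Standard errors (SE) lay between 0.066 and 0.157. For all 55 genes the 3 libraries of one group lay above the 3 of the other, as they did for 99.3% of listed genes.

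Large changes were few. No member had a log2 fold change above 1, which 8.41% of listed genes had, and 1 member, MRPS10, was below -1, where 31.1% of listed genes were. At the cutoffs of the study, an absolute log2 fold change above 1.5 with an adjusted p-value below 0.05, no member passed in either direction, while 2.54% of listed genes passed as higher and 16.5% as lower. Both DESeq2 and edgeR on the recovered reads also passed 0 members at these cutoffs.

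**Figure D1:**
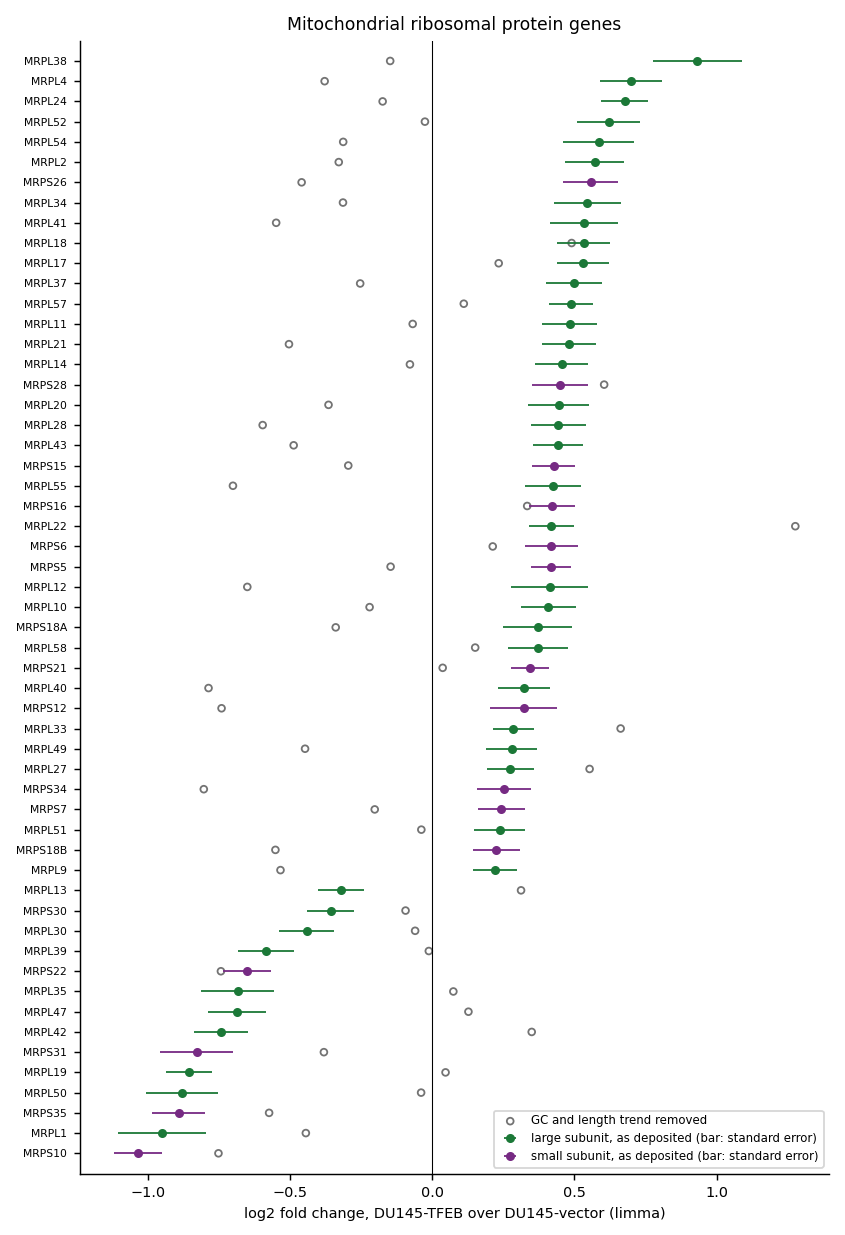
Log2 fold change of each of the 55 genes (horizontal axis, DU145-TFEB over DU145-vector, limma) with its standard error as a bar, coloured by subunit, and the same value after the trend against GC content and gene length was removed from each library (open circles). As deposited, 41 genes lie above 0 and 14 below, and with the trend removed 24 of the 41 pass the test as lower.

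The highest log2 fold change was that of MRPL38 (ENSG00000204316, chr17:75898643-75905413 of GRCh38, minus strand), a mitochondria-specific protein of the large subunit that resembles phosphatidylethanolamine-binding proteins. Its normalized counts were 112.6, 97.4 and 109 in DU145-TFEB and 56.9, 55.6 and 53 in DU145-vector. All 3 DU145-TFEB libraries were well above all DU145-vector libraries, and MRPL38 was at the same time the scarcest of the 55 transcripts per kilobase. The log2 fold change was 0.93 (SE 0.157, limma adjusted p = 3.78e-04), and its annotated exons overlap other genes, so part of the reads may be theirs.

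MRPL4, the homologue of bacterial uL4, which lines the tunnel through which new peptides leave, came next. It had 1668, 2011 and 1558 normalized counts in DU145-TFEB and 1121, 974.3 and 1118 in DU145-vector, a log2 fold change of 0.70 (SE 0.108, limma adjusted p = 2.20e-04). The groups did not overlap, and DU145-TFEB replicate 2 was the highest library. MRPL24 (chr1:156737303-156741590, minus strand), the homologue of an early assembly protein of the bacterial large subunit, had 4101, 4817 and 4084 against 2739, 2572 and 2802 normalized counts. It was both among the most changed and among the most abundant members, with a log2 fold change of 0.68 (SE 0.082, limma adjusted p = 5.10e-05). The other 3 of the 6 highest were MRPL52 with 913 ± 134 against 590 ± 18.4 normalized counts, MRPL54 with 632 ± 93.1 against 419 ± 36.2, and MRPL2, whose bacterial homologue lies at the peptidyl transferase centre, with 1426 ± 107 against 963 ± 116 (SD, n = 3 per group). Their log2 fold changes were 0.62, 0.59 and 0.57. All 6 encode large-subunit proteins, as do 40 of the 55 members.

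The lowest log2 fold change was that of MRPS10 (ENSG00000048544, chr6:42206801-42217865, minus strand), the homologue of bacterial uS10 in the head of the small subunit. Its normalized counts were 1051, 1150 and 1142 in DU145-TFEB and 2332, 2454 and 2082 in DU145-vector. Every DU145-TFEB library was far below every DU145-vector library, with a ratio of the means of 0.487, a log2 fold change of -1.04, and an SE of 0.084 (limma adjusted p = 6.48e-06). MRPL1, the homologue of the protein of the mobile L1 stalk, followed with 222, 276.6 and 201.4 against 405.8, 535.4 and 413 normalized counts. DU145-vector replicate 2 was the highest library of MRPL1, and the log2 fold change was -0.95 (SE 0.156, limma adjusted p = 3.17e-04).

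MRPS35, a mitochondria-specific small-subunit protein, had 455.6, 487.7 and 480.8 normalized counts in DU145-TFEB and 834.1, 967.5 and 848 in DU145-vector, a log2 fold change of -0.89. MRPL50 had 258 ± 9.49 against 478 ± 73.5, MRPL19 had 812 ± 52.9 against 1469 ± 58.5, and MRPS31 had 162 ± 17.4 against 288 ± 19.2 normalized counts (SD, n = 3 per group), with log2 fold changes of -0.88, -0.85 and -0.83. Then came MRPL42 with -0.74, MRPL47 with -0.69, MRPL35 with -0.68 and MRPS22 with -0.65, and the remaining lower genes were MRPL39, MRPL30, MRPS30 and MRPL13, from -0.58 to -0.32. MRPS22, which is mutated in an inherited mitochondrial disease, had 776.5, 852.6 and 891.9 against 1313, 1388 and 1257 normalized counts, with no overlap of the groups.

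**Figure D2:**
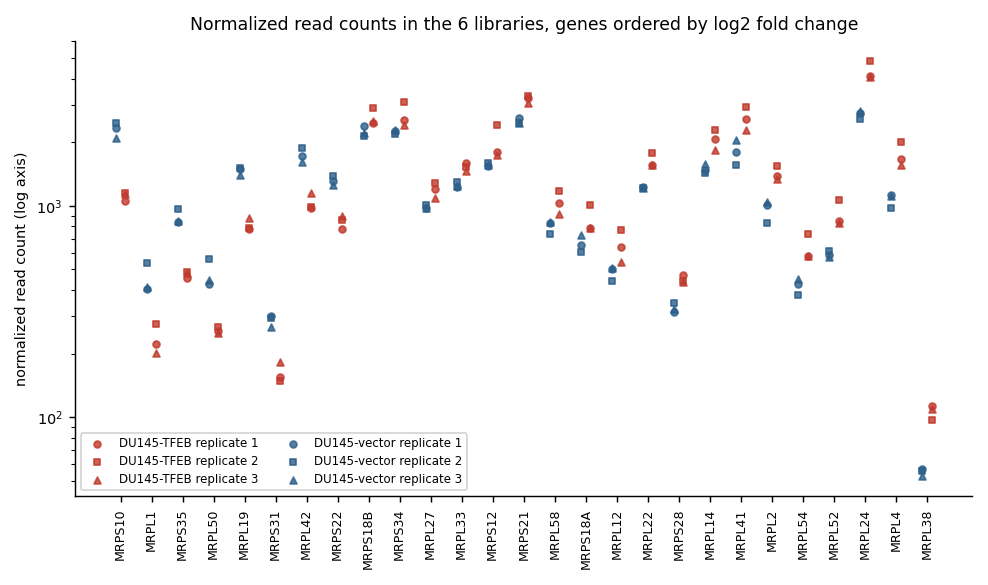
Normalized read counts (vertical log axis) of 27 genes described in the text, ordered by log2 fold change, with 1 point per library (red, DU145-TFEB; blue, DU145-vector; circle, square and triangle for replicates 1, 2 and 3). The groups do not overlap in any of the 27 genes, and the red squares of DU145-TFEB replicate 2 are the highest points of most genes on the right.

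The 2 subunits were described separately. Of 51 large-subunit symbols 40 were listed, of which 30 were higher and 10 lower, and the median log2 fold change was 0.42. Of 26 small-subunit symbols 15 were listed, of which 11 were higher and 4 lower, with a median of 0.32. MRPS18A and MRPS30 were counted with the large subunit, where structures place them despite their symbols. By origin, 33 homologues of bacterial proteins (26 higher, 7 lower) had a median of 0.42 and 22 proteins classed as mitochondria-specific (15 higher, 7 lower) one of 0.30. MRPS18A and MRPS18B were classed as mitochondria-specific here, although they are paralogues of bacterial bS18.

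Summed over its listed genes, the large subunit had 27446, 31186 and 25916 normalized reads per kilobase in DU145-TFEB, against 22416, 21342 and 22636 in DU145-vector. The small subunit had 11958, 13560 and 11675 against 11132, 10873 and 10739. Both sums were higher in every DU145-TFEB library than in any DU145-vector library. Only genes that passed the authors' own comparison of these libraries enter the sums, and the groups did not overlap for 99.3% of listed genes. This separation is thus no independent evidence. The level of the large subunit over that of the small was 2.30, 2.30 and 2.22 in DU145-TFEB and 2.01, 1.96 and 2.11 in DU145-vector, again without overlap. The sums cover 40 of 51 large-subunit and 15 of 26 small-subunit symbols, so their ratio is not the balance of the whole subunits. On the log2 scale the ratio of these sums was 1.18 ± 0.029 against 1.02 ± 0.052 (SD, n = 3 per group), a difference of 0.16. An exact permutation test (two-sided) gave p = 0.1. This is the lowest value that a design of 3 against 3 can give, so 0.05 cannot be reached. As a share of all reads on listed genes, the 55 genes took 0.557%, 0.617% and 0.538% in DU145-TFEB and 0.498%, 0.490% and 0.50% in DU145-vector.

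**Figure D3:**
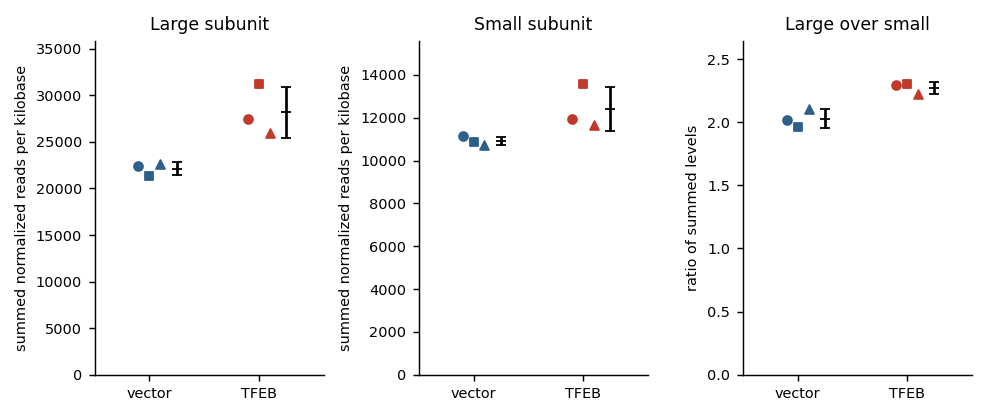
Summed level per library in normalized reads per kilobase for the 40 large-subunit genes (left) and the 15 small-subunit genes (middle), and the ratio of the sums (right), with 1 point per library (circle, square and triangle for replicates 1, 2 and 3) and the mean with its SD as a bar beside them. All 3 DU145-TFEB points lie above all 3 DU145-vector points in each panel, from 2.22 to 2.30 against 1.96 to 2.11 for the ratio.

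Transcript levels differed widely among the members, although the proteins are mostly needed in equal numbers per ribosome. The mean of the 6 libraries ran from 22.0 normalized reads per kilobase for MRPL38 to 2243 for MRPS34, with a median of 539. MRPS34, a mitochondria-specific small-subunit protein, was the most abundant member per kilobase and had 2553, 3085 and 2411 normalized counts in DU145-TFEB against 2263, 2179 and 2276 in DU145-vector. Its difference was among the smallest of the group (log2 fold change 0.25, standard error 0.095, limma adjusted p = 0.025), and it was no longer called without DU145-TFEB replicate 2 or without any of the 3 DU145-vector replicates. Next per kilobase came MRPL24, MRPL14, MRPL41 and MRPS21. MRPL14, the homologue of a protein at the subunit interface to which the assembly factor MALSU1 binds, had 2063, 2289 and 1835 against 1484, 1429 and 1584 normalized counts, a log2 fold change of 0.46. MRPL41 rose by 0.53 and MRPS21 by 0.34 on the log2 scale.

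At the other end, MRPL42 and MRPS31 stood next to MRPL38 with the lowest levels per kilobase. MRPL42 had 972.3, 982.7 and 1154 normalized counts in DU145-TFEB against 1712, 1870 and 1613 in DU145-vector, and its annotated length is 16393 bases, so its level per kilobase is low beside its counts. MRPS31 had 76.2 normalized reads per kilobase in DU145-TFEB and 135 in DU145-vector. A pseudogene that shares its name, MRPS31P5, was listed with 6.96 ± 0.632 against 18.7 ± 5.00 normalized counts (SD, n = 3 per group). Annotated pseudogenes exist for 23 of the 55 genes, and the exons of 27 overlap another gene, 19 of them one on the opposite strand. The sources used here do not give the strand setting of the read counting, so reads of these genes may be shared.

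Members with a known special role had differences within the range of the others. MRPL12, the homologue of the bacterial L7/L12 stalk protein that recruits translation factors, had 635.5, 771.6 and 541 normalized counts in DU145-TFEB and 504.8, 439.9 and 506 in DU145-vector, a log2 fold change of 0.41 (SE 0.135, limma adjusted p = 0.0136), and was no longer called without DU145-vector replicate 2. MRPL58, also known as ICT1, a peptidyl-tRNA hydrolase that rescues stalled ribosomes, had 1039 ± 128 against 800 ± 52.7 normalized counts, and MRPS12, a decoding-centre protein, had 1980 ± 368 against 1567 ± 29.3 (SD, n = 3 per group), with log2 fold changes of 0.37 and 0.32. Of the 3 paralogues of bacterial bS18, MRPS18A and MRPS18B were listed. MRPS18A rose by 0.37 (SE 0.121) and MRPS18B by 0.23 (SE 0.083) on the log2 scale. MRPS12 lost its call without any of the DU145-vector replicates, MRPS18A without DU145-vector replicate 2, and MRPS18B without DU145-TFEB replicate 2 or DU145-vector replicate 2 or 3.

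The libraries of a group were not alike for these genes, nor for the whole table. Over all listed genes DU145-TFEB replicate 2 differed most from its group (chi-square per gene 13.77 and 26.62, against 5.171 between replicates 1 and 3). How often each library was highest or lowest over all listed genes was not counted. DU145-TFEB replicate 2 was the highest of its group in 36 of the 41 higher genes and DU145-TFEB replicate 3 the lowest in 35. DU145-vector replicate 2 was the lowest of its group in 26 of the 41 higher genes and the highest of its group in 13 of the 14 lower genes. As deviations from the 6-library mean, the median of the 41 higher genes was 0.19, 0.37 and 0.12 in DU145-TFEB and -0.19, -0.30 and -0.17 in DU145-vector on the log2 scale. For the 14 lower genes it was -0.46, -0.26 and -0.28 against 0.32, 0.46 and 0.28. Both sets were chosen by the direction of these same differences, and the groups overlapped in no member, so these medians had to lie apart between the groups. Without DU145-TFEB replicate 2 the median log2 fold change of the 55 genes was 0.32, with 38 higher and 14 lower.

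The direction of a member followed the GC content of its transcript, as it did across the whole table. Spearman's rho between log2 fold change and GC content was 0.673 over the 55 genes and 0.747 over 10537 listed genes, given as a description because the genes share the same 6 libraries. The 41 higher members had a median GC content of 53.0% and the 14 lower ones of 40.5%. The lower members also had more exons (median 7 against 4) and longer gene models (median 3115 against 2246 bases). Over 55% GC all 17 members were higher, as were 96.7% of listed genes, and between 45% and 55% 20 of 22 members were higher, against 54.0%. Under 45% GC 4 of 16 members were higher, against 5.86% of listed genes, and their median log2 fold change was -0.69, against -1.24. Members under 45% GC were thus less reduced than the typical listed gene of that band, and members over 55% GC had a median of 0.46, below the 0.62 of their band.

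**Figure D4:**
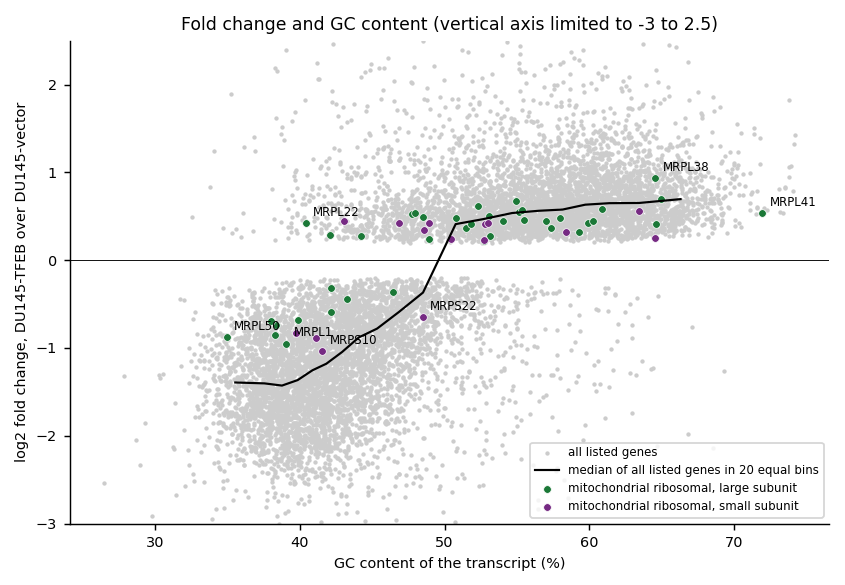
Log2 fold change (DU145-TFEB over DU145-vector) against the GC content of the transcript in percent, for all listed genes (grey; 64 lie outside the drawn range of -3 to 2.5), with their median in 20 bins of equal size (line), and for the mitochondrial ribosomal protein genes of the large (green) and small subunit (purple). The members follow the rise of the line but stay closer to 0 than many listed genes, and MRPL22 at 40.4% GC is higher where nearly all genes of like GC content are lower.

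When the trend of each library against GC content and gene length was removed, the shares of members called lay close to those of the whole table. Then 10 members (18.2%) were higher and 29 (52.7%) lower by limma at an adjusted p-value below 0.05, where 14.6% of all listed genes with a GC content were higher and 54.9% lower. The median log2 fold change was -0.20, where the median of all listed genes was -0.32. The members then ran the other way against GC content, with a Spearman's rho of -0.584, where that of all listed genes was 0.089. Over 55% GC their median was -0.49, against -0.34 for listed genes of that band, and under 45% it was 0.061, against -0.41. The trend of the whole table thus did not match that of the members, and its removal is no clean correction for them. Of the 41 higher members 8 remained higher, 24 became lower and 9 were not called. Of the 14 lower members 5 remained lower, 2 became higher (MRPL13 and MRPL42) and 7 were not called. MRPL4, for example, went from 0.70 to -0.38 and MRPS34 from 0.25 to -0.80. On the deposited scaling, the direction of the group as a whole therefore depends on whether the GC trend is left in. The removal was run on this scaling alone. With the trend left in, DESeq2 size factors moved the median of the members from 0.41 to 0.65. The sign of the median of -0.20, and the calls as lower, may thus also depend on the scaling. What part of this trend comes from the preparation of the libraries was not tested, and it cannot be told apart from the effect of TFEB, because all libraries of a group lie on the same side.

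A few members kept their direction in each of the settings run, and these were chosen after their values were seen. The 4 higher ones given here all lie under 45% GC, where the median of listed genes was -1.24. Removing the trend mostly raises values there, so that it left these 4 higher was all but fixed and is no evidence of robustness. Members of higher GC content also stayed higher, such as MRPL18 (0.53 and 0.49 with the trend removed) and MRPS16 (0.42 and 0.33). MRPL22 (ENSG00000082515, chr5:154941070-154969411, plus strand), the homologue of another protein of the exit tunnel, had 1556, 1784 and 1558 normalized counts in DU145-TFEB and 1231, 1213 and 1211 in DU145-vector. All DU145-TFEB libraries were clearly above the tightly grouped DU145-vector libraries. Its log2 fold change was 0.42 (SE 0.080, limma adjusted p = 7.66e-04) at 40.4% GC, and 1.28 with the trend removed. The other 3 higher members under 45% GC, MRPL33, MRPS28 and MRPL27, had log2 fold changes of 0.29, 0.45 and 0.27 as deposited and of 0.66, 0.60 and 0.55 with the trend removed. MRPL33 had 1598, 1530 and 1465 against 1230, 1294 and 1242 normalized counts, and MRPS28 had 469.3, 443.1 and 435.1 against 313.7, 348.2 and 325.

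On the lower side, MRPS22 went from -0.65 to -0.74 and MRPS10 from -1.04 to -0.75 with the trend against GC content and gene length removed. The 5 members that were lower both ways were MRPS10, MRPS35, MRPS31, MRPS22 and MRPL1, so that all 4 small-subunit genes that were lower stayed lower, and 1 of the 10 in the large subunit did. With the trend against GC content alone removed, MRPS22 had -0.73 and MRPS10 -0.17, the latter without a call, and MRPS35, MRPS31 and MRPL1 changed sign.

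Promoter sequences were examined because TFEB binds the E-box CACGTG, most strongly as the CLEAR motif built around TCACGTGA, and because many mitochondrial ribosomal protein genes are known targets of factors such as GABPA, NRF1 and YY1. RefSeq windows on GRCh38.p14 from 250 bases before to 50 bases after a start were matched by symbol for 49 of the 55 genes, giving 63 windows. Matches on either strand are shown in capitals in the windows of MRPL37 and MRPL22, which carry the E-box and, in MRPL37, the TCACGTGA that contains it, and of MRPL38 and MRPS10, the members with the highest and the lowest log2 fold change. The windows lie at chr1:54199917-54200216 (MRPL37, plus strand), chr5:154940823-154941122 (MRPL22, plus), chr17:75904835-75905134 (MRPL38, minus) and chr6:42217812-42218111 (MRPS10, minus), and each is written 5′ to 3′ on the strand of its gene.
MRPL37: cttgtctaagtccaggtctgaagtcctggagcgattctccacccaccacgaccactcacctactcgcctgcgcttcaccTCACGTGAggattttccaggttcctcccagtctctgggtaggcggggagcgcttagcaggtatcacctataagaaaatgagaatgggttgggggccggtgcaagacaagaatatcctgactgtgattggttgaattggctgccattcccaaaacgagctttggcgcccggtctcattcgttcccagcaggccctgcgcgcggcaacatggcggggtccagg
MRPL22: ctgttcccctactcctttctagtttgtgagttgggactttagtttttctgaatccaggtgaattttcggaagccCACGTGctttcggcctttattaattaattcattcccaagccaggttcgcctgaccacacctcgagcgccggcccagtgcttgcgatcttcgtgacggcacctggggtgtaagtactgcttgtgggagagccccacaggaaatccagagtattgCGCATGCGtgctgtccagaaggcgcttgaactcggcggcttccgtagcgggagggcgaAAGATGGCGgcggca
MRPL38: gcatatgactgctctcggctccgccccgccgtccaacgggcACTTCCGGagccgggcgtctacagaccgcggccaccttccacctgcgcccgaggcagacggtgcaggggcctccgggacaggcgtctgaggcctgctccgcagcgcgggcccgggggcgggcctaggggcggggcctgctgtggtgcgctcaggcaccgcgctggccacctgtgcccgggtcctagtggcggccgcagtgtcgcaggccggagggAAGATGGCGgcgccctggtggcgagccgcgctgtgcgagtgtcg
MRPS10: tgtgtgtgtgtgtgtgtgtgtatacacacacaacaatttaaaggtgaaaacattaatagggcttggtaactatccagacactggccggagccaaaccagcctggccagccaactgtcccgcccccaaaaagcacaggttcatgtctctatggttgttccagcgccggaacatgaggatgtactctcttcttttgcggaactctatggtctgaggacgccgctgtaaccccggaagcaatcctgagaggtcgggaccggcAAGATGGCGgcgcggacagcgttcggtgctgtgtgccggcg

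In MRPL37, which had 2979, 3672 and 2929 normalized counts in DU145-TFEB and 2375, 2101 and 2278 in DU145-vector (log2 fold change 0.50), the match starts 171 bases before the start. In MRPL22 the capitals are an E-box, CGCATGCG (the NRF1 core) and AAGATGGCG (the YY1 motif), in MRPL38 CCGGAAGT (the ETS motif of GABPA) read on the other strand and AAGATGGCG, and in MRPS10 AAGATGGCG alone. The E-box was found in 4 of the 63 windows (6.35%), in MRPL14, MRPL22, MRPL37 and MRPL49. These 4 were all among the higher genes, as were 74.5% of the 55 members. Other windows of MRPL14 and MRPL49 lacked the E-box. The E-box was found in 7.26% of all 35116 windows in the table and in 9.19% of the windows of listed genes. TCACGTGA was found in the window of MRPL37 alone (1.59%), against 0.98% of all windows and 1.75% of those of listed genes.

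Of the other motifs, CCGGAAGT and AAGATGGCG were more frequent in these windows than in all windows and in those of listed genes, while CGCATGCG was not more frequent than in the latter. CCGGAAGT was in 11 windows (17.5%) of 9 genes, against 4.14% of all windows and 7.50% of those of listed genes. Of its 9 genes 7 were higher, where 74.5% of the 55 members were. AAGATGGCG was in 9 windows (14.3%), against 1.75% and 3.43%, and 5 of its 9 genes were higher. It contains the letters ATG, so a match after the start of transcription can include the first codon. CGCATGCG was in 2 windows (3.17%), against 2.02% and 3.36%. These matches are descriptions of the letters and do not show that a factor binds there.

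Many of these genes share a promoter region with a neighbour read in the opposite direction. A head-to-head partner with its start within 1000 bases was annotated for 19 members, and 9 of the partners were listed. In 6 pairs both genes moved the same way, as in MRPL49 (0.28) with FAU (0.65), a fusion of a ubiquitin-like protein with cytosolic ribosomal protein S30, and in MRPL50 (-0.88) with ZNF189 (-1.65). Among these pairs, exons of MRPL49, MRPL2, MRPS12 and MRPL13 overlap those of their partners FAU, KLC4, SARS2 and MTBP on the opposite strand. Reads may be shared there, and the part of this was not tested. How often other neighbouring genes moved the same way was not examined. In the other 3 the genes moved apart. MRPL18 had a log2 fold change of 0.53 and TCP1, a chaperonin subunit whose start lies 717 bases away, one of -0.69. MRPL57 had 0.49 and SKA3 -0.95, at 43 bases, while MRPL47 had -0.69 and NDUFB5, a subunit of respiratory complex I, 0.31, at 137 bases.

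Other genes of mitochondrial protein synthesis were taken from lists made for this comparison. Of 5 mitoribosomal proteins with other symbols 4 were listed, and 3 were higher and 1 lower. GADD45GIP1, also known as CRIF1, a large-subunit protein at the exit of the tunnel, had a log2 fold change of 1.06 (2241 ± 362 against 1069 ± 109 normalized counts), AURKAIP1 one of 0.41, and CHCHD1 one of 0.26. PTCD3 of the small subunit had -1.57 (449 ± 58.4 against 1328 ± 116; SD, n = 3 per group). Of 30 factors of mitoribosome assembly and rRNA modification 21 were listed, 16 higher and 5 lower, with a median of 0.38. MPV17L2 (1.05) and MALSU1 (0.64) had the highest values, and FASTKD2 (-1.28) and GTPBP10 (-1.26) the lowest. With the trend removed 1 of the 21 was higher, MALSU1 with 1.39, and 14 were lower, where 14.6% and 54.9% of all listed genes were, and the median was -0.40 against -0.32.

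Of 18 mitochondrial translation factors 13 were listed, 5 higher and 8 lower. The share that was lower was thus not far from the 52.4% of all listed genes. Their median log2 fold change was -0.87 as deposited and -0.30 with the trend removed, when 2 were higher and 8 lower and the median of all listed genes was -0.32. The elongation factor TUFM rose by 0.58 and the insertase OXA1L by 0.47 on the log2 scale, while LRPPRC, which stabilizes mitochondrial mRNAs, had -2.08 and GUF1, the homologue of a bacterial elongation factor, -1.43. LRPPRC had 1290 ± 400.1 against 5308 ± 503 normalized counts (SD, n = 3 per group). Its partner SLIRP had 0.42, and 1.04 with the trend removed. Of 23 genes of mitochondrial DNA maintenance and transcription 20 were listed, 8 higher and 12 lower, with a median of -0.51 as deposited and -0.38 with the trend removed. LONP1, the matrix protease, and POLRMT, the mitochondrial RNA polymerase, had the highest values (0.97 and 0.94), and MTERF1 and PNPT1 the lowest (-1.64 and -1.55).

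The RNA made from mitochondrial DNA was higher in DU145-TFEB. Of 13 mitochondrially encoded mRNAs 12 were listed and all 12 were higher, the median log2 fold change being 0.66, although with quantile normalization 4 were higher and 1 was lower. MT-CO2 and MT-CO1, which encode subunits of cytochrome c oxidase, had 1.13 each. The rRNAs of the mitochondrial ribosome itself had log2 fold changes of 0.53 (MT-RNR1, small subunit) and 1.10 (MT-RNR2, large subunit), and neither was called with quantile normalization. With the trend removed the median of the mitochondrial mRNAs was 1.04, and all 12 were again higher. Their level in a polyadenylated library also depends on the selection of poly(A) tails, whose part was not tested. Cytosolic ribosomal proteins, the closest comparison, were higher in 67 of 69 listed genes, with a median of 0.60, and with the trend removed 32 were higher and 19 lower, with a median of 0.12, against -0.20 for the mitochondrial ribosomal proteins.

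**Figure D5:**
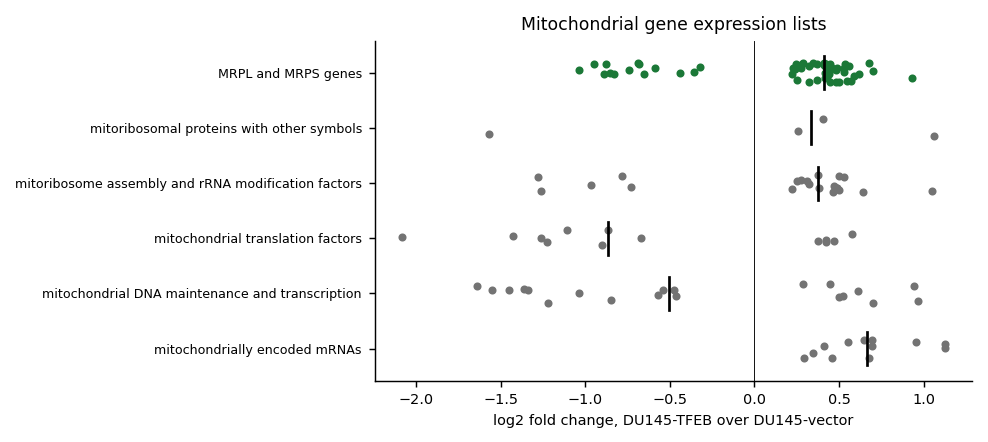
Log2 fold change (DU145-TFEB over DU145-vector) of each listed gene in 6 lists of mitochondrial gene expression, with 1 point per gene, spread vertically for sight, and the median as a black bar. The medians are 0.41 for the MRPL and MRPS genes, 0.33 for mitoribosomal proteins with other symbols, 0.38 for assembly factors, -0.87 for translation factors, -0.51 for DNA maintenance and transcription and 0.66 for the mitochondrially encoded mRNAs.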

How the data were processed

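The RNA-seq comparison comprised 3 libraries of DU145-TFEB and 3 of DU145-vector, grouped and numbered by their titles. Per the processing notes of the submitters, CASAVA 1.8, HISAT2 2.1.0 and edgeR were used with GRCh38, and the methods of the study name DESeq2. The counting program, annotation and strand setting are not given in the sources used here. All 10542 gene positions equal those of GENCODE 29. The authors deposited a normalized signal, each gene's read count divided by 1 size factor per library, for genes with an adjusted p-value below 0.05. Whole reads were recovered from 100% of values (tolerance 0.01). The authors also deposited group means, log2 fold changes and p-values of their own comparison, used to check this selection alone.

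Differences were tested with limma 3.58.1 (mean-variance trend, R 4.3.3) on log2(normalized count + 1), a scale that shrinks differences of scarce transcripts a little. Adjustment was by Benjamini-Hochberg over all 10542 listed genes. GC content came from the longest protein-coding transcript of GENCODE 29 (10537 genes) and gene length from the table. A loess fit to both was subtracted in each library (span 0.5, degree 2). Alternatives were the pseudocount, a filter of 10 reads, other normalizations, DESeq2 1.42.0 and edgeR 4.0.16 on the recovered reads, a replicate block, protein-coding genes alone, and each library left out. Removal of the trend against GC content alone or with transcript length was added after the data were seen.

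The members and lists were chosen with earlier results of these data known. Genes described by rule were the 6 highest and 6 lowest log2 fold changes, the 5 highest and 3 lowest levels per kilobase and members with known roles, with 2 of each direction in other lists. Further genes were named after their values were seen. Chi-square per gene was 2.96 to 26.6 within a group, more than sampling noise, and 163 to 324 across the groups. Such a spread does not tell whether the libraries came from separate cultures. Treating the 3 libraries of a group as replicates was an assumption of the tests, and the p-values rest on it.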

Additional observations from a re-analysis of the deposited data

How the results depend on the processing

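With the GC trend left in, the scaling moved the sizes but not the direction of the group. The median log2 fold change of the 55 genes was 0.65 with DESeq2 size factors, 0.59 with the upper quartile, 0.53 with quantile normalization and 0.64 with DESeq2 on recovered reads, and that of all listed genes moved from -0.36 to -0.12 with DESeq2 size factors and to -0.03 with quantile normalization. The difference between both medians was 0.76 as deposited, 0.76 with DESeq2 size factors and 0.56 with quantile normalization. With quantile normalization 9 genes were lower. In each of these 4 settings and with edgeR, 1 gene, MRPL38, passed a log2 fold change of 1. Leaving out 1 library gave 36 to 41 higher and 14 lower genes, a median from 0.32 to 0.43 and a log2 ratio of the subunits from 0.14 to 0.19. Over all 55 genes, calls lost with 1 library left out were those of MRPS34, MRPS18A, MRPS18B, MRPL12, MRPS12 and MRPL51, and MRPL51 also lost its call when scaled to the total of the listed genes.

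Removing trends, run on the deposited scaling alone, reversed the median and many genes. With GC content and gene length 10 genes were higher, 29 lower and 1 above a log2 fold change of 1, with a median of -0.20. With GC content and transcript length it was 8, 35 and 1, with a median of -0.38, and with GC content alone 16, 25 and 3, with -0.14. In that order, the values of genes that changed sign were -0.15, -0.15 and -0.11 for MRPL38, -0.38, -0.42 and -0.34 for MRPL4, -0.17, -0.28 and -0.15 for MRPL24, -0.31, -0.63 and -0.41 for MRPL54, -0.33, -0.34 and -0.28 for MRPL2, 0.047, 0.096 and 0.21 for MRPL19, -0.80, -0.93 and -0.78 for MRPS34, -0.078, -0.53 and -0.40 for MRPL14, -0.55, -0.53 and -0.53 for MRPL41, 0.35, 0.41 and 0.32 for MRPL42, -0.34, -0.68 and -0.55 for MRPS18A, -0.55, -0.54 and -0.43 for MRPS18B, -0.65, -0.77 and -0.63 for MRPL12 and -0.74, -0.75 and -0.63 for MRPS12. MRPL52 had -0.026 and -0.17 in the first 2 settings. With transcript length MRPL50 had 0.072, MRPS21 -0.10 and MRPL58 -0.38. With GC content alone MRPS31 had 0.18, MRPL50 0.23, MRPS35 0.018, MRPL1 0.089 and MRPL58 -0.14. The cause was not tested.

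The replicate numbers did not pair the libraries, as deviations of same-numbered libraries had correlations of -0.02, -0.25 and -0.14. With a replicate block 39 genes were higher and 14 lower, and MRPS18B and MRPL9 lost their calls. With the replicate block and the trend against GC content and gene length removed, 9 were higher, 29 lower and 1 above a log2 fold change of 1, with a median of -0.20 and the gene values of that trend removal without the block.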
